A study of Mus musculus with 4 samples.

Results

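The genes described here are the enzymes, readers and motors that write, erase, read or move chromatin, taken from array signals of mouse CD4+ CD8- thymocytes. They were chosen by name: a gene belonged when the array annotation gave its probe set a single symbol of the Kdm, Kmt, Kat, Chd, Brd, Dnmt, Tet, Ezh or Setd families followed by a digit, or a Smarc symbol with a letter from a to e. This gave 80 of 18193 genes, on 215 probe sets, and each gene was read on its brightest probe set, by the mean of the 4 arrays. By family these were 18 Kdm, 8 Kmt, 8 Kat, 10 Chd, 6 Brd, 4 Dnmt, 3 Tet, 2 Ezh, 8 Setd and 13 Smarc genes.

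The series asks what the transcription factor Foxp3 does in developing CD4 T cells, and holds 4 sorted populations with 1 Affymetrix mouse expression array each. Of these, 3 came from female Foxp3(gfp/gfp) mice, homozygous for a knock-in allele in which GFP is fused to Foxp3. They were sorted as GFP- CD25-, as GFP- CD25+, or as GFP+ and then named Foxp3-fusion cells. Female Foxp3(gfpko/wt) mice, which carry a GFP-marked knockout allele beside a normal one, gave the GFP+ population named Foxp3-null. The mice were 6 to 8 weeks old and untreated as far as the labels say. The Foxp3(gfp/gfp) mice had been backcrossed from 129/Sv to C57BL/6 for 4 to 6 generations and the Foxp3(gfpko/wt) mice for 2, so the allele, the backcross and the array cannot be told apart in any comparison with Foxp3-null cells. The description attached to the Foxp3(gfpko/wt) sample repeats that of the other mice, and the title and strain entry were used to place it. The labels do not say how many mice were pooled. With 1 array per population no difference has a replicate check, none carries an error or a p-value, and precision is limited by how few arrays there are. Signals are quantile normalized log2 values, and 4 values in a row always follow the order GFP- CD25-, GFP- CD25+, Foxp3-null, Foxp3-fusion.

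Chromatin enzymes act in opposed pairs. Ezh, most Kmt and some Setd proteins place methyl groups on histone lysines, and Kdm proteins remove them. Kat proteins acetylate lysines that the bromodomains of Brd proteins then bind. Chd and Smarc proteins use ATP to slide or evict nucleosomes, or are partners of such motors. Dnmt enzymes methylate cytosines in DNA, and Tet enzymes oxidise the methyl group as a step towards its loss. In regulatory T cells a conserved intronic enhancer of Foxp3 loses DNA methylation, Tet enzymes take part in that loss, and Ezh2 is known to support the stability of the Foxp3 programme.

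Promoter sequences of the members were read from RefSeq (assembly GRCm38.p6), which held 92 windows for 65 of the 80 genes. The 250 bases before a start site held a median of 20 CpG dinucleotides in member windows, 16 in windows of genes with signal above the floor on at least 1 array, and 6 over all 32851 windows. At least 10 CpG dinucleotides were present in 80.4% of member windows, 71.6% of windows of genes with signal and 37.8% of all windows. A CpG-rich and a CpG-poor window are shown by the 100 bases before the start of Kdm7a, an eraser of histone methylation whose window holds 56 CpG in 250 bases (chr6:39206774-39206873, minus strand), and of Smarcd2, a remodelling complex subunit whose window holds 4 (chr11:106267633-106267732, minus strand), with CpG in capitals.
Kdm7a: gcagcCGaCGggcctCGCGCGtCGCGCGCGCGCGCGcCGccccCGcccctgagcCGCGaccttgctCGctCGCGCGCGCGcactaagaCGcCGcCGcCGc
Smarcd2: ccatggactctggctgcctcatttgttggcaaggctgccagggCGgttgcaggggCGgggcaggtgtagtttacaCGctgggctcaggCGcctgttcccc

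A forkhead core, TGTTTAC on either strand, was searched because Foxp3 is a forkhead protein, and a CCAAT box, CCAATCA or CCAATGA on either strand, because it is a frequent promoter element that does not overlap the forkhead core. The forkhead core stood in 2 of 92 member windows (2.17%), those of Brd2 and Kdm2b, against 2.14% of windows of genes with signal and 3.17% of all windows of 250 bases. The CCAAT box stood in 13 member windows of 10 genes (14.1%), against 13.6% of windows of genes with signal and 10.6% of all windows. Both shares are thus near those of genes with signal. Windows of 100 bases with the match in capitals are given for Brd2, whose signal was lowest in Foxp3-fusion cells (chr17:34120051-34120150, minus strand), for the DNA methyltransferase gene Dnmt1 (chr9:20959889-20959988, minus strand), for the Polycomb enzyme gene Ezh2 (chr6:47595070-47595169, minus strand) and for Setd3, which encodes a methyltransferase of actin (chr12:108179314-108179413, minus strand). Brd2 has 3 windows in the table, Dnmt1 3, Ezh2 1 and Setd3 2, and one that holds the match is shown. The Dnmt1 window shown holds 2 CpG in 250 bases, and the other windows of this gene, with 26 and 7 CpG, lack the match. Which start site these cells use was not tested. Kdm2b, the other member with a forkhead match, was lowest in Foxp3-null cells on the probe set used and in Foxp3-fusion cells on its next. A match describes letters in these windows and is no evidence of binding.
Brd2: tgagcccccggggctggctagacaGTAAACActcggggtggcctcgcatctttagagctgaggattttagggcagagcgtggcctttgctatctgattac
Dnmt1: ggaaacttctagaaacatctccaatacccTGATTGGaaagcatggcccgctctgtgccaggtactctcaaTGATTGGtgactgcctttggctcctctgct
Ezh2: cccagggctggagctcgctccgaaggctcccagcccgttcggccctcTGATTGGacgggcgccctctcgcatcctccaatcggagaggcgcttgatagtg
Setd3: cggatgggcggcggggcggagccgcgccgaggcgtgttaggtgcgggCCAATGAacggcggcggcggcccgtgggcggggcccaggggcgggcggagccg

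Most chromatin genes gave signal in all 4 populations. A floor of 4.32 log2 separated signal from background. It is the 90th percentile of probe sets for tissue genes taken as silent in T cells, on the array where that was highest. Of 44 such genes 39 lay under the floor on every array, and 1, Ttn, above it on all 4. Above the floor lay 65 of 80 members on all 4 arrays, or 81.2%, against 37.8% of all genes. On at least 1 array 70 members lay above it. The 10 members under it on every array were Chd5, Dnmt3l, Kdm4b, Kdm4d, Kdm5d, Kdm8, Smarca1, Smarcd1, Smarcd3 and Tet3. Kdm5d lies on the Y chromosome, and these mice were female. For these genes the arrays give no difference, which does not show that the transcripts were absent.

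Among the 70 members with signal, the highest and the lowest of the 4 arrays were less than 2-fold apart for 37 and at least 2-fold apart for 33. The latter is 47.1% of the members, beside 40.0% of all 8278 genes with signal. Without the Foxp3-null array it was 22 of 70 members, or 31.4%, beside 27.8% of all genes, and without the Foxp3-fusion array 22, beside 27%. As deposited it was 32, or 45.7%, beside 42.4% of all genes. As deposited and without the Foxp3-null array it was 18, or 25.7%, below the 31.4% of all genes. The median range over the 4 arrays was 0.95 log2 for members and 0.84 for all genes. The 19 members that were at least 2-fold apart in one of the comparisons below, both after quantile normalization and on the scale as deposited, are plotted by array.

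**Figure D1:**
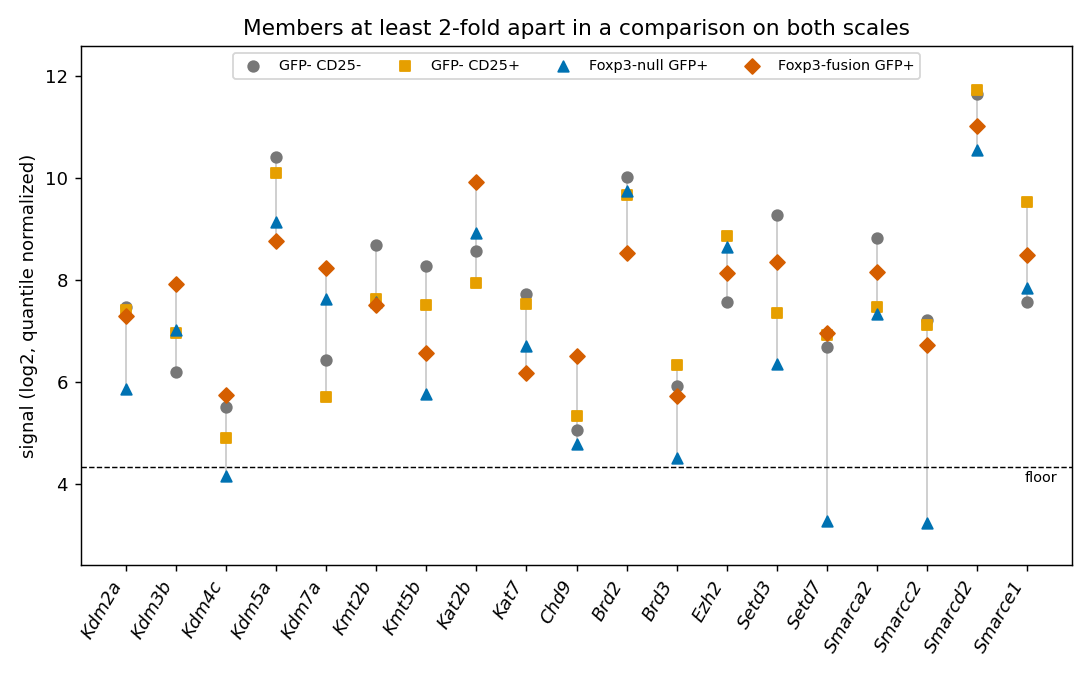
Signal (quantile normalized log2) of the 19 members at least 2-fold apart in at least 1 comparison on both scales, ordered by family; each symbol is 1 array and the dashed line is the floor. On the Foxp3-null array Kdm4c, Setd7 and Smarcc2 lie under the floor, and the last 2 lie at 6.68 log2 or more on the other 3 arrays.

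The arrays differed in ways that bear on these values. Arrays correlated at r from 0.964 to 0.983 across probe sets, which are not independent replicates. The 3' to 5' gap of the actin control probe sets was 8.37, 9.29, 7.10 and 5.02 log2, smallest on the Foxp3-fusion array. Of 25 cell cycle genes 17 were measured in Foxp3-null over GFP- CD25- cells, and 11 were higher by 2-fold or more and 0 lower, or 7 and 1 as deposited. Over GFP- CD25- cells, 2 of 17 were higher in GFP- CD25+ and 4 of 18 in Foxp3-fusion cells, with 0 lower in either, and 7 of 18 were lower in Foxp3-fusion over Foxp3-null cells, or 4 as deposited. Over all genes 10.8% were higher in Foxp3-null, 4.21% in GFP- CD25+ and 10.2% in Foxp3-fusion cells, and 9.06% lower in Foxp3-fusion over Foxp3-null cells. The CD4 T cell markers Cd3e, Cd3d, Cd3g, Cd4, Cd5 and Cd28 were above the floor on all 4 arrays and Zbtb7b on 2. Foxp3 read 2.76, 2.88, 7.27 and 8.82, and its sort through GFP makes this no finding. Of other cell types' markers, 5 of 6 B cell genes, 7 of 10 dendritic cell and macrophage genes, 3 of 5 NK and NKT genes, 1 of 4 CD8 T cell genes, 4 of 6 thymic epithelial genes and all 3 erythroid and 2 gamma delta T cell genes were under the floor on every array. Summed linear signal of the dendritic cell and macrophage list ran from 92.9 in GFP- CD25- to 187 in Foxp3-null cells, where Cst3, Csf1r and Adgre1 were above the floor (at least 2.75-fold, at least 2.26-fold and at least 1.85-fold over GFP- CD25- cells), Cst3 also in Foxp3-fusion cells, while the defining Itgax and Itgam were under it throughout. That of the NK and NKT list was 182 in GFP- CD25- cells and 34.8 to 43.9 in the others, where Klrd1 and Zbtb16 were under the floor. The part of RNA quality, cell cycle and other cells in the differences below was not tested, and fewer cells of a type and less RNA per cell cannot be told apart in such samples.

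In GFP- cells, the CD25+ population differed from the CD25- population in few chromatin genes. Smarce1, a DNA-binding subunit of the SWI/SNF remodelling complex, was 3.88-fold higher and Ezh2, which methylates histone H3 on lysine 27 and so marks silent genes, was 2.47-fold higher. Setd3 was 3.81-fold lower, Smarca2, one of the alternative ATPases of the SWI/SNF complex, 2.56-fold lower, and Kmt2b, which methylates lysine 4 of histone H3 at active promoters, 2.1-fold lower. Of 70 members measured, 2 were higher by 2-fold or more and 3 were lower by as much, against a background of 4.21% and 4.65% of all genes measured. The median log2 difference of the members was 0.06, beside 0.10 over all genes. On the deposited scale the counts were 2 higher and 5 lower of 70 members, beside 2.75% and 7.38% of all genes, and the medians were -0.12 and -0.01.

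Against GFP- CD25- cells, Foxp3-null cells held the largest drops of the set. Setd3 was 7.6-fold lower, Smarcc2, a scaffold subunit of the SWI/SNF complex, at least 7.41-fold lower, Kmt5b, which methylates lysine 20 of histone H4, 5.75-fold lower, and Setd7, a lysine methyltransferase of histone H3 and other proteins, at least 5.11-fold lower. Upward, the H3 lysine 4 methyltransferase gene Kmt2a was 2.48-fold higher, Brd8, a bromodomain subunit of a histone acetylation complex, 2.31-fold higher, Kdm7a 2.28-fold higher and Ezh2 2.12-fold higher, but all 4 fell short of 2-fold on the deposited scale, at 0.93, 0.88, 0.82 and 0.72 log2. Of 70 members measured, 4 were higher by 2-fold or more and 12 were lower by as much, against a background of 10.8% and 7.65% of all genes measured. The median log2 difference of the members was 0.03, beside 0.21 over all genes. On the deposited scale the counts were 0 higher and 15 lower of 70 members, beside 5.36% and 11.9% of all genes, and the medians were -0.33 and 0.00. Members at least 2-fold lower were thus a larger share (17.1%) than the background and those higher a smaller share (5.71%), on 1 array against another; as deposited 21.4% were lower.

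Foxp3-fusion cells, sorted as GFP+, had higher signal than GFP- CD25- cells for 2 histone demethylases. Kdm7a was 3.5-fold higher, Kdm3b, which removes methyl groups from lysine 9 of histone H3, 3.3-fold higher, the remodeller gene Chd9 2.74-fold higher and the acetyltransferase gene Kat2b, also called PCAF, 2.56-fold higher. Lower were Kmt5b (3.28-fold), Kdm5a, an eraser of H3 lysine 4 methylation (3.13-fold), Kat7, an acetyltransferase linked to replication origins (2.94-fold), Brd2, a BET reader of acetylated histones (2.82-fold), Kmt2b (2.28-fold) and the remodeller gene Chd8 (2.07-fold). Kmt2b and Chd8 were under 2-fold on the deposited scale, at -0.90 and -0.75 log2. Of 70 members measured, 4 were higher by 2-fold or more and 6 were lower by as much, against a background of 10.2% and 5.53% of all genes measured. The median log2 difference of the members was -0.32, beside -0.05 over all genes. On the deposited scale the counts were 5 higher and 4 lower of 70 members, beside 15% and 3.76% of all genes, and the medians were -0.05 and 0.13.

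Between the GFP+ populations, which differ by label in whether the GFP allele encodes Foxp3, the genes that were low on the Foxp3-null array stood apart. Foxp3-fusion cells exceeded Foxp3-null cells at least 6.19-fold for Setd7, at least 5.26-fold for Smarcc2, 4-fold for Setd3 and 3.34-fold for Chd9. Kdm2a, which demethylates lysine 36 of histone H3, was 2.68-fold higher, Kdm4c, an eraser of lysine 9 and 36 methylation, at least 2.66-fold higher, and the BET reader gene Brd3 2.33-fold higher. Chd8, Brd2, Setd5, Smarcb1 and Kat6a were 2.01 to 2.43-fold lower, a call that none of them kept on the deposited scale, where they ran from -0.66 to -0.40 log2. Of 69 members measured, 7 were higher by 2-fold or more and 5 were lower by as much, against a background of 9.32% and 9.06% of all genes measured. The median log2 difference of the members was -0.19, beside -0.16 over all genes. On the deposited scale the counts were 17 higher and 0 lower of 69 members, beside 19.9% and 3.49% of all genes, and the medians were 0.32 and 0.25. Members higher were 10.1% of those measured, or 24.6% as deposited, near the background on either scale, and the direction of small differences between these arrays changed with the scaling. The comparisons with GFP- CD25- cells share that array, and Foxp3-null cells enter 2 comparisons, so the 4 sets of differences are not independent.

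**Figure D2:**
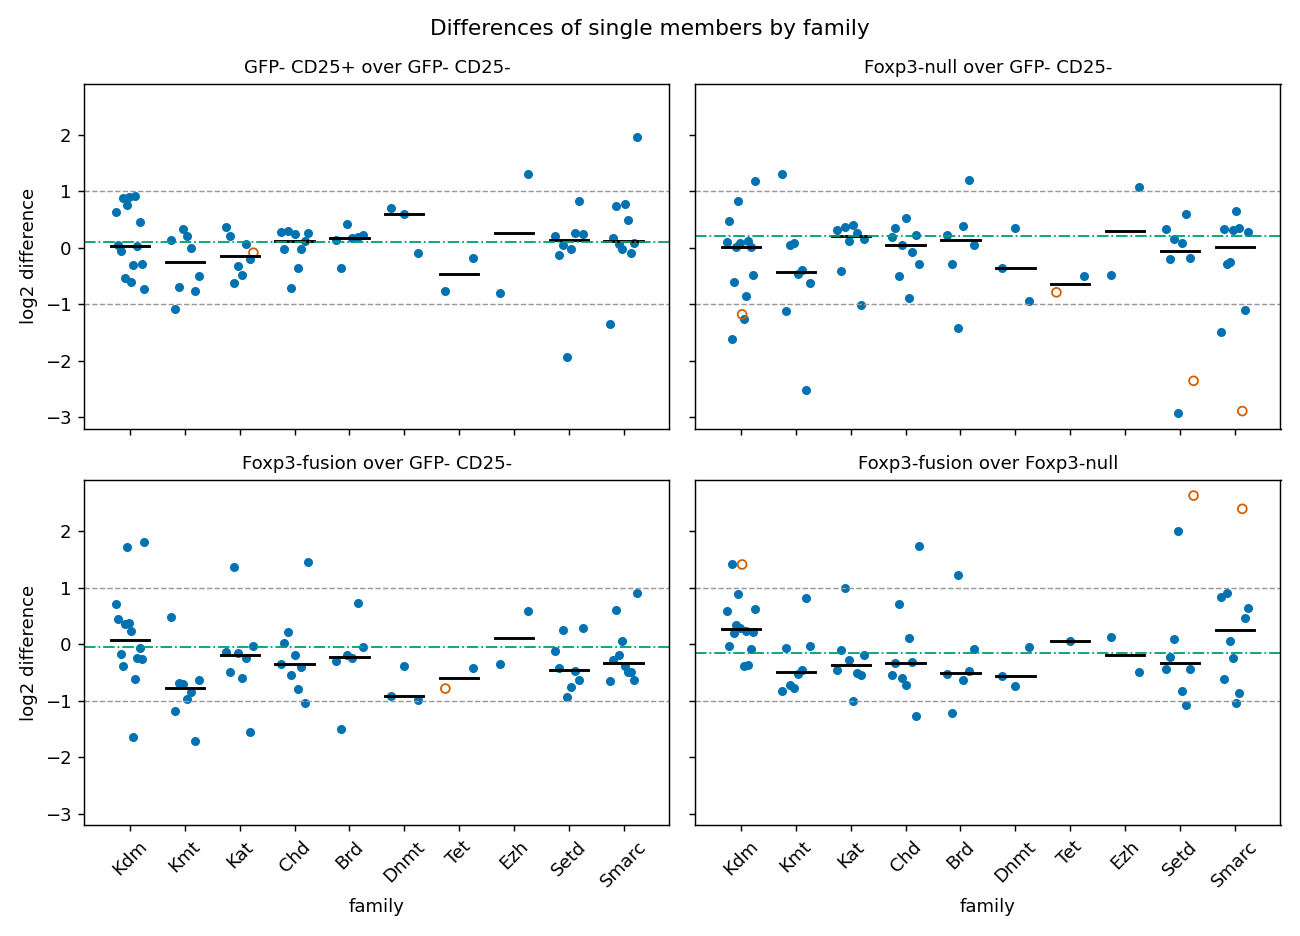
Log2 difference of each measured member by family in 4 comparisons; filled points are measured on both arrays, open points are lower bounds with 1 array at the floor, black bars are family medians, the green line is the median of all genes and dashed lines mark 2-fold. Most points lie between the dashed lines, and the Dnmt members, on the probe sets used, lie below 0 in both Foxp3-fusion panels on this scale, though not all of them over Foxp3-null cells on the deposited scale.

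**Figure D3:**
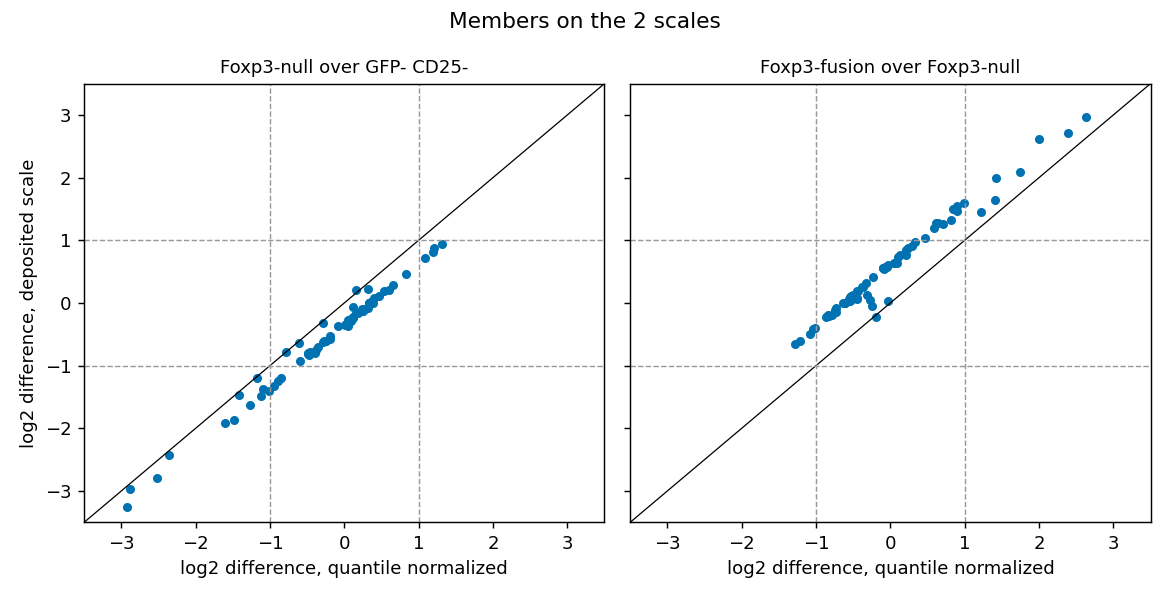
Log2 difference of each member on the quantile normalized scale (horizontal) and the deposited scale (vertical), for Foxp3-null over GFP- CD25- and Foxp3-fusion over Foxp3-null cells; the solid line marks equal values and dashed lines 2-fold. Points lie mostly below the line on the left and above it on the right, so that members at least 2-fold lower in Foxp3-fusion cells number 5 on the horizontal scale and 0 on the vertical.

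A second probe set of the same gene was a direct check on these calls. Over the 4 comparisons there were 43 differences of at least 2-fold among members, and for 27 of them the next brightest probe set could be read in the same comparison. It went the same way for 22 of 27 and reached 2-fold for 0. Over all genes the same shares were 73.2% and 27.4% of 1956 differences. A gene can enter several times, and comparisons share arrays. Probe sets that went the other way were those of Brd8 and Kmt2a in Foxp3-null over GFP- CD25- cells (-0.37 and -0.35 log2), Kat7 there (0.01), and Chd8 and Kdm2a in Foxp3-fusion over Foxp3-null cells (0.71 and -0.86). Among those that went the same way, the differences nearest to 2-fold on the second probe set were those of Chd8 (-0.87) and Kdm7a (0.79) in Foxp3-fusion over GFP- CD25- cells, Kdm5a (-0.84) and Smarcd2 (-0.83) in Foxp3-null over GFP- CD25- cells and Setd3 (0.86) in Foxp3-fusion over Foxp3-null cells. Ezh2, Kdm4c, Kmt2b and Smarcc2 have 1 probe set here, and the others of Setd7 and Kdm3b were under the floor on all arrays, so these 6 genes had no such check; nor did Brd3, Kat6a and Setd5 in the comparisons where they were counted.

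**Figure D4:**
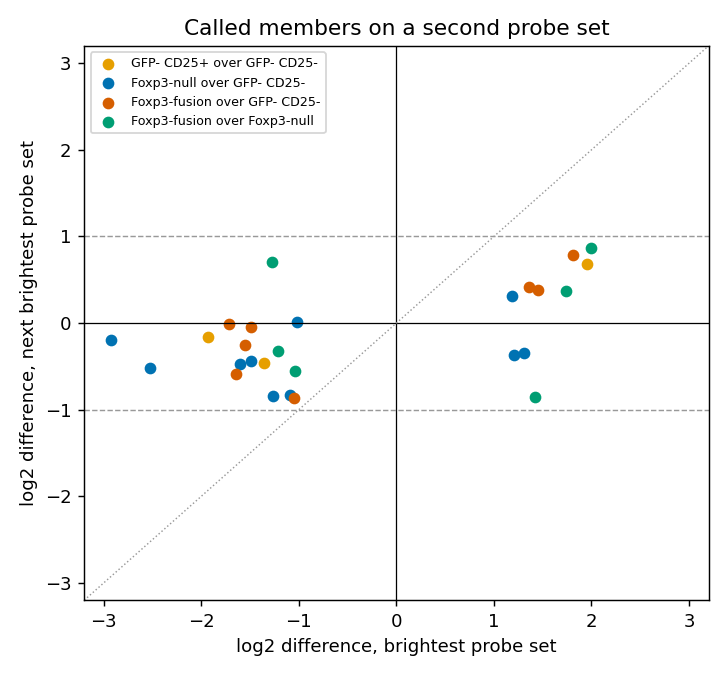
Members at least 2-fold apart on the probe set used (horizontal, log2 difference) against their next brightest probe set (vertical) in 4 comparisons; the dotted line marks equal values and dashed lines 2-fold on the second probe set. All 27 points lie between the dashed lines, 22 of them on the same side of 0 as on the probe set used.

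The order of the arrays also depended on the probe set. For 37 members both the probe set used and the next brightest were above the floor on all 4 arrays. The highest array was the same for 13 of them (35.1%) and the lowest for 18 (48.6%), beside 37.1% and 39.7% of 2501 genes. Of 15 such members that were under 2-fold apart on the probe set used, 8 were 2-fold or more apart on the next, beside 40.4% over all genes. In what follows, the values and the order of the arrays are those of the probe set used unless another is named.

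After quantile normalization, and on the probe sets used, the DNA methyltransferases Dnmt1, Dnmt3a and Dnmt3b were at their lowest in Foxp3-fusion cells, though one other probe set of Dnmt3a was at its highest there. Dnmt1, which copies methylation to the new strand at replication, read 8.55, 9.25, 8.19 and 7.63 log2. Dnmt3a, which sets new methylation, read 8.26, 8.87, 8.61 and 7.87. That opposed probe set of Dnmt3a read 7.32, 7.82, 7.13 and 8.05; the other 3 of this gene were lowest in Foxp3-fusion cells. Dnmt3b, its relative, read 7.76, 7.66, 6.82 and 6.77. Dnmt3l, a cofactor without activity of its own, read 2.89, 3.01, 2.86 and 2.74, under the floor. On the probe sets used the 3 genes above the floor were lower in Foxp3-fusion than in GFP- CD25- cells, by 1.89-fold, 1.31-fold and 1.99-fold, under the 2-fold size counted here, with differences of -0.64, -0.12 and -0.75 log2 on the deposited scale. Against Foxp3-null cells the differences were -0.56, -0.75 and -0.05 log2, and 0.06, -0.12 and 0.57 as deposited, so that direction is not settled. Dnmt1 and Dnmt3a were highest in GFP- CD25+ cells, at 0.70 and 0.61 log2 above GFP- CD25- cells. The Dnmt1 probe set used can match several transcripts; its next brightest read 6.98, 7.19, 6.08 and 6.63, lowest in Foxp3-null cells, and its last 5.87, 5.61, 4.997 and 4.63, lowest in Foxp3-fusion cells.

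Of the Tet genes, Tet2 gave clear signal, with 10.33, 10.16, 9.84 and 9.90 log2, and was highest in GFP- CD25- cells, by no more than 1.4-fold. Its other probe set read 5.86, 6.94, 5.13 and 6.27, highest in GFP- CD25+ cells. Tet1 read 5.11, 4.34, 4.12 and 4.29, just above the floor in GFP- CD25+ cells and under it in both GFP+ populations, a bound of at least 1.73-fold lower in Foxp3-fusion than in GFP- CD25- cells. Its next probe set read 4.65, 3.71, 3.74 and 4.94, highest in Foxp3-fusion cells, so the probe sets do not give Tet1 one direction. Tet3 read 2.54, 2.70, 3.42 and 2.50, below the floor throughout, so its part cannot be read from these arrays.

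Methylation of lysine 27 of histone H3 is set by Ezh1 and Ezh2, the alternative catalytic subunits of Polycomb complex 2. Ezh2 read 7.56, 8.87, 8.65 and 8.15 log2 and was lowest in GFP- CD25- cells. Ezh1 read 9.12, 8.32, 8.64 and 8.77 and was highest there, but its next probe set read 5.62, 6.09, 5.90 and 5.24, highest in GFP- CD25+ cells, so an opposed course of the pair rests on 1 probe set. In GFP- CD25+ over GFP- CD25- cells Ezh2 was 2.47-fold higher and Ezh1 1.73-fold lower, or 1.03 and -1.05 log2 as deposited. In Foxp3-fusion over GFP- CD25- cells the differences were 0.58 for Ezh2 and -0.35 for Ezh1, or 0.85 and -0.07 as deposited. On the same arrays the proliferation marker Mki67 read 8.48, 9.63, 10.62 and 9.11 log2 and the replication gene Mcm5 9.52, 10.14, 11.14 and 9.89, both lowest in GFP- CD25- cells like Ezh2. Others of the list differed: Mcm4 read 10.74, 10.76, 10.02 and 10.37 and Rrm2 8.93, 9.57, 9.97 and 8.19. The part of the cell cycle in the Ezh2 difference was not tested. The demethylase gene of this mark Kdm6a read 9.22, 9.69, 9.23 and 9.15, and its next probe set 8.07, 7.73, 7.01 and 8.65. Kdm6b read 9.41, 9.12, 8.94 and 9.15, and its next probe set 8.60, 9.66, 9.99 and 7.19. Both were under 2-fold apart on the probe set used and over 2-fold apart on the next, Kdm6a then lowest in Foxp3-null and Kdm6b highest there.

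Most Kmt genes, writers of lysine methylation, were lower in Foxp3-fusion than in GFP- CD25- cells. Kmt family medians over the 4 comparisons, in the order given above, were -0.25, -0.42, -0.77 and -0.49 log2, and -0.39, -0.70, -0.64 and 0.04 as deposited, beside all-gene medians of 0.10, 0.21, -0.05 and -0.16, or -0.01, 0.00, 0.13 and 0.25 as deposited. Of the 8 Kmt genes 7 were below 0 in Foxp3-fusion over GFP- CD25- cells on both scales, Kmt2a being the exception; over all members 51 of 70 were below 0, or 40 as deposited. Kmt2b read 8.69, 7.62, 7.57 and 7.50, with GFP- CD25- cells above the other 3. Kmt2e, whose SET domain protein is not known as an active methyltransferase, had the brightest probe set of the family and read 10.98, 11.20, 10.52 and 10.003. Kmt2c, an enzyme of enhancers, read 9.60, 8.91, 9.65 and 8.92, but 8.72, 8.36, 9.40 and 9.09 and 8.94, 8.97, 7.37 and 9.23 on the next brightest probe sets, which were higher in Foxp3-fusion than in GFP- CD25- cells. The last probe set of Kmt2c read 6.90, 6.49, 6.04 and 5.29, lowest in Foxp3-fusion cells, so its probe sets do not give 1 direction. The related gene Kmt2d read 10.02, 10.36, 10.11 and 9.32, lowest in Foxp3-fusion cells. Setd1a and Setd1b, which serve the same mark, were within 0.444 log2 over all arrays.

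Erasers of H3 lysine 4 methylation differed unevenly. Kdm5a read 10.41, 10.11, 9.14 and 8.76 log2, high in both GFP- and low in both GFP+ populations. It was 2.4-fold lower in Foxp3-null and 3.13-fold lower in Foxp3-fusion than in GFP- CD25- cells, and its second probe set gave -0.84 and -0.59 log2. The median over its 6 probe sets, 3 of them under the floor on every array, reversed the Foxp3-fusion difference, to 0.16 log2. Kdm5b read 8.60, 9.51, 7.75 and 7.98, highest in GFP- CD25+ cells, but 6.81, 5.39, 3.53 and 5.43 on its next probe set, highest in GFP- CD25- cells. Kdm5c, the X-linked member, read 9.15, 9.17, 9.27 and 8.90. Its next probe set read 7.47, 7.43, 8.12 and 6.90, highest in Foxp3-null and lowest in Foxp3-fusion cells. Another read 8.48, 7.84, 6.45 and 6.62, lower in both GFP+ than in both GFP- populations. Kdm1a, also called LSD1, read 8.66, 9.30, 8.78 and 9.37, and Kdm1b 7.70, 7.75, 8.18 and 8.15.

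The other demethylases included Kdm7a and Kdm3b, the members with the largest differences upward in Foxp3-fusion over GFP- CD25- cells. Kdm7a read 6.43, 5.70, 7.62 and 8.24 log2, with both GFP+ populations above both GFP- populations. Its next probe set read 6.59, 4.41, 6.90 and 7.38, again highest in Foxp3-fusion and lowest in GFP- CD25+ cells, the latter by more than on the probe set used. Kdm3b read 6.20, 6.96, 7.03 and 7.92, lowest in GFP- CD25- and highest in Foxp3-fusion cells, and Kdm3a 7.82, 7.29, 7.84 and 8.18. Kdm2a read 7.47, 7.42, 5.86 and 7.29, with Foxp3-null cells below the other 3, but its next probe set was lowest in Foxp3-fusion cells and the median over its 7 probe sets gave 0.17 log2 for Foxp3-null over GFP- CD25- cells and -0.69 for Foxp3-fusion over Foxp3-null cells. Kdm2b, which also recruits a Polycomb complex to CpG islands, had the brightest probe set of the family and read 10.55, 11.43, 9.95 and 10.16, highest in GFP- CD25+ cells, and 9.55, 9.92, 10.08 and 9.45 on the next, highest in Foxp3-null cells. Kdm4c read 5.50, 4.90, 4.16 and 5.73, under the floor only in Foxp3-null cells, and Kdm4a 6.58, 7.49, 6.67 and 6.96. The Kdm family median in Foxp3-fusion over Foxp3-null cells was 0.26 log2, with 10 of 14 above 0, beside -0.16 for all genes. As deposited it was 0.90 beside 0.25, with 14 above 0. Over all members 27 of 69 were above 0 in this comparison, or 52 as deposited, so most members rose above 0 on that scale.

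Among the enzymes of H4 lysine 20, Kmt5b read 8.28, 7.52, 5.76 and 6.57 log2 and was highest in GFP- CD25- cells and lowest in Foxp3-null cells. Its second probe set gave -0.52 log2 for Foxp3-null and -0.01 for Foxp3-fusion over GFP- CD25- cells, so the size rests on 1 probe set. Another read 6.86, 3.92, 6.83 and 7.15, under the floor in GFP- CD25+ and highest in Foxp3-fusion cells. The direction in Foxp3-fusion over GFP- CD25- cells is thus not settled. Kmt5a, which places the first methyl group, read 6.86, 6.87, 6.48 and 6.02, and Kmt5c 5.31, 4.80, 4.69 and 4.66; on these probe sets all 3 genes were lower in both GFP+ populations than in GFP- CD25- cells, on the deposited scale too. The other probe set of Kmt5a read 5.89, 6.09, 6.42 and 5.72, highest in Foxp3-null cells.

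The Setd genes are named for their SET domain and differ in substrate. Setd3 read 9.28, 7.35, 6.35 and 8.35 log2, the widest spread of any member above the floor on all 4 arrays, with GFP- CD25- cells at the top and Foxp3-null cells at the bottom. Its second probe set read 6.66, 6.50, 6.47 and 7.33, nearly level over the first 3 arrays and highest in Foxp3-fusion cells. Setd7 read 6.68, 6.92, 3.26 and 6.95, level but for the Foxp3-null array, where it was under the floor. Setd2, which writes H3 lysine 36 trimethylation, read 6.06, 6.12, 6.22 and 6.30. Setd6 read 8.69, 9.53, 8.51 and 8.07, on the brightest probe set of its family, and Setd5 6.64, 6.90, 7.24 and 6.17.

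The acetyltransferases ran in different directions. Kat2b read 8.56, 7.94, 8.93 and 9.92 log2, highest in Foxp3-fusion and lowest in GFP- CD25+ cells, and Foxp3-fusion cells exceeded GFP- CD25- cells 2.56-fold; its second probe set gave 0.42 log2. Its paralog Kat2a read 7.64, 7.84, 7.24 and 7.14. Kat7 read 7.72, 7.53, 6.71 and 6.17, lower in both GFP+ than in both GFP- populations, though its second probe set gave -0.25 log2 in Foxp3-fusion over GFP- CD25- cells and the median over its 3 probe sets was 0.0149 in Foxp3-null over GFP- CD25- cells. Kat6a, with the brightest probe set of the family, read 9.34, 8.87, 9.75 and 8.74, Kat6b 6.70, 6.77, 6.96 and 6.46 and Kat5, or Tip60, 5.41, 5.09, 5.53 and 5.25. Kat8 was close to the floor, at 4.41, 3.87, 4.57 and 4.37.

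Of the bromodomain readers, Brd2 read 10.02, 9.66, 9.74 and 8.53 log2 and was lowest in Foxp3-fusion cells, 2.82-fold lower than in GFP- CD25- cells. Its other probe set was near the floor and gave -0.05 log2. Brd3 read 5.91, 6.33, 4.49 and 5.72, lowest in Foxp3-null cells. Brd8 read 8.62, 8.82, 9.83 and 9.35, higher in both GFP+ populations, but 8.06, 8.33, 7.69 and 8.43 on its next probe set, lowest in Foxp3-null cells. On the probe sets used Brd1, Brd7 and Brd9 varied by 0.27 to 0.637 log2 over the 4 arrays.

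Most Chd remodellers were under 2-fold apart on the probe sets used. Chd9 read 5.05, 5.32, 4.77 and 6.51 log2 and was highest in Foxp3-fusion cells, and its second probe set gave 0.38 log2 over GFP- CD25- cells. Chd8 read 9.86, 9.99, 10.10 and 8.82, lowest in Foxp3-fusion cells, but 8.61, 7.47, 7.03 and 7.74 on its next probe set, lowest in Foxp3-null cells. Chd3, with the brightest probe set of the family, read 10.24, 9.54, 10.30 and 9.69. Chd4, the motor of the NuRD complex, read 8.70, 8.94, 9.23 and 8.50. On the probe sets used Chd1, Chd1l, Chd2, Chd6 and Chd7 had ranges of 0.367 to 0.895 log2. The other probe set of Chd2 read 7.44, 7.03, 8.79 and 9.01, higher by over 2-fold in both GFP+ populations than in GFP- CD25- cells.

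The SWI/SNF complex has alternative ATPases. Smarca4, or BRG1, read 9.13, 9.30, 9.46 and 8.85 log2, a range of 0.61, but 7.65, 8.64, 7.27 and 6.61 on its second probe set, highest in GFP- CD25+ and lowest in Foxp3-fusion cells. Smarca2, or BRM, read 8.82, 7.46, 7.33 and 8.17 and was highest in GFP- CD25- cells; its second probe set gave -0.46 log2 in GFP- CD25+ and -0.44 in Foxp3-null over GFP- CD25- cells. Among core subunits, Smarcc1 read 8.18, 8.68, 8.54 and 7.68 and Smarcb1 7.47, 8.25, 8.13 and 7.09, both lowest in Foxp3-fusion cells on these probe sets. The next ones read 5.53, 5.51, 5.57 and 5.85 and 5.78, 6.66, 6.84 and 6.29 and were not. Another probe set of Smarcc1 read 5.07, 6.13, 5.14 and 4.97, again lowest in Foxp3-fusion cells. The related scaffold gene Smarcc2 read 7.21, 7.12, 3.23 and 6.72, below the floor in Foxp3-null cells alone. Smarcd2, with the brightest probe set of the family, read 11.65, 11.73, 10.56 and 11.02, and its alternatives Smarcd1 and Smarcd3 were under the floor. Smarce1 read 7.57, 9.53, 7.85 and 8.49, highest in GFP- CD25+ cells by 3.88-fold over GFP- CD25- cells, where its second probe set gave 0.68 log2 and was highest in Foxp3-null cells. Smarca5, the ISWI motor, read 9.63, 10.38, 9.34 and 10.24, high in GFP- CD25+ and Foxp3-fusion cells and under 2-fold apart in all 4 comparisons, but 1.46 log2 for Foxp3-fusion over Foxp3-null cells as deposited.

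Partner genes of these complexes that lie outside the naming rule, 136 in 9 lists, were read the same way. Each was read on its brightest probe set alone. Unlike those of the members, the single differences given here and in the next paragraph were not checked on a second probe set. In the order of the comparisons above, 3, 8, 6 and 5 of 108, 106, 108 and 108 measured were higher by 2-fold or more and 5, 7, 2 and 5 lower by as much; as deposited the counts were 2, 3, 12 and 22 higher and 7, 11, 1 and 1 lower. After quantile normalization the shares were 2.78%, 7.55%, 5.56% and 4.63% higher and 4.63%, 6.6%, 1.85% and 4.63% lower. On that scale each was below the share of all genes, which was 4.21%, 10.8%, 10.2% and 9.32% higher and 4.65%, 7.65%, 5.53% and 9.06% lower. As deposited the backgrounds were 2.75%, 5.36%, 15% and 19.9% higher and 7.38%, 11.9%, 3.76% and 3.49% lower. There the 22 of 108 higher in Foxp3-fusion over Foxp3-null cells were not below their background. Among SWI/SNF partners the largest differences were those of Ss18l1 and Bicral in Foxp3-null over GFP- CD25- cells (at least 3.01-fold lower and 2.14-fold lower). Ruvbl1, an AAA+ subunit of the INO80 complex, read 5.63, 5.76, 6.52 and 7.52 log2, 3.7-fold higher in Foxp3-fusion than in GFP- CD25- cells, and Hells, a remodeller needed for DNA methylation, 3.63-fold higher in GFP- CD25+ than in GFP- CD25- cells. In NuRD, Gatad2b was 2.25-fold lower in Foxp3-fusion and Mta3 2.06-fold higher in Foxp3-null than in GFP- CD25- cells. Both were under 2-fold on the deposited scale, at -0.89 and 0.67 log2. In the Polycomb list Jarid2, which guides Polycomb complex 2 to DNA, read 11.25, 11.30, 9.33 and 10.39 log2 and was 3.8-fold lower in Foxp3-null than in GFP- CD25- cells, and Phc3 read 8.22, 8.45, 9.29 and 9.30, higher in both GFP+ populations.

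Of H3 lysine 4 partner genes, Cxxc1, which binds unmethylated CpG, was at least 4.03-fold lower in GFP- CD25+ than in GFP- CD25- cells, and Wdr82 2.95-fold higher in Foxp3-fusion than in GFP- CD25- cells. Crebbp, the acetyltransferase CBP, read 10.23, 8.63, 10.02 and 10.10 log2, 3.03-fold lower in GFP- CD25+ than in GFP- CD25- cells. Between the GFP+ populations Naa60 was 2.63-fold lower in Foxp3-fusion cells, but under 2-fold on the deposited scale, at -0.80 log2. The methyltransferase gene Smyd2 was 4.32-fold higher in Foxp3-null than in GFP- CD25- cells, and Setdb1, which methylates H3 lysine 9, 2.59-fold lower in Foxp3-fusion cells. Phf8, a histone demethylase, read 8.32, 7.58, 6.84 and 8.43, lowest in Foxp3-null cells, which Foxp3-fusion cells exceeded 3.01-fold. Uty, a Y-linked gene, read 4.80, 5.12, 5.85 and 4.33 in these female samples, so that its signal cannot be taken as its own transcript. Of genes around DNA methylation, Pcna, the replication clamp that binds Dnmt1, was 3.63-fold higher in Foxp3-null and Gadd45b 2.47-fold higher in GFP- CD25+ than in GFP- CD25- cells.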

How the data were processed

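RNA of 4 sorted thymocyte populations was extracted on columns, amplified in 2 rounds and hybridised to Affymetrix mouse expression arrays, per the labels' protocols. Values as deposited, 1 for each probe set on each array, were taken as log2 from their range; the authors' background correction, summarisation and normalization are not given in the sources used here. On the deposited scale 732 to 2570 probe sets read exactly the same on a pair of arrays, among them 1 to 6 member probe sets, and 90th percentiles ran from 7.54 to 8.16. Values were therefore quantile normalized over the arrays after 64 control probe sets were left out, with the deposited values as an alternative. Of 45101 probe sets, 34945 had a single gene symbol in the platform annotation, 932 had several and 9160 were unnamed; 34741 matched RefSeq gene identifiers, and 0 symbols changed.

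Values under the floor (4.32 log2, or 4.34 on the deposited scale, from 75 probe sets) were set to it, so a fold with 1 side there is a bound ("at least"); where both sides lay there no fold was taken. With 1 array per group no test was made, and a difference was counted from 2-fold. Named with all 4 values are members at least 2-fold apart on both scales, every Dnmt, Tet and Ezh gene and the brightest probe set of each other family, which does not compare transcript amounts between genes; others illustrate their family. Of the lists outside the rule, the 2 genes with the largest differences are named. The members and lists were chosen with earlier results of these data known. Promoter motifs and windows were chosen after the values were seen. Python 3.11.15, numpy 2.4.6 and pandas 2.3.3 were used, and the scripts were tested on simulated data.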

Additional observations from a re-analysis of the deposited data

How the results depend on the processing

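No paired analysis was possible because each group has 1 array. On the deposited scale the count of members at least 2-fold lower in GFP- CD25+ over GFP- CD25- cells was 5, that of members higher in Foxp3-null over GFP- CD25- cells 0, and those in Foxp3-fusion over Foxp3-null cells 17 higher and 0 lower, and the median difference of the members turned sign in all 4 comparisons but Foxp3-fusion over GFP- CD25- cells; the cause was not tested. With the median over a gene's probe sets, 60 to 62 members were measured. Counts over GFP- CD25- cells were 1 higher in GFP- CD25+, 2 higher in Foxp3-null, and 2 higher and 3 lower in Foxp3-fusion cells. In Foxp3-fusion over Foxp3-null cells 2 were lower. In that order the shares of all genes were 2.73%, 7.65%, 9.78%, 3.02% and 4.91%. The median difference of the members in Foxp3-fusion over GFP- CD25- cells was then -0.04 log2, beside 0.02 over all genes. On the probe sets used it was -0.32, so its size depended on the choice of probe set. In Foxp3-fusion over Foxp3-null cells the median of the members turned sign, from -0.19 to 0.08, beside -0.06 over all genes. Over GFP- CD25- cells the median over probe sets also reversed Kat7 (0.0149) and Kdm2a (0.17) in Foxp3-null and Kdm5a (0.16) in Foxp3-fusion cells. It reversed Kdm2a in Foxp3-fusion over Foxp3-null cells too (-0.69). The cause was not tested. At 1.5-fold the counts were 12 higher and 11 lower in GFP- CD25+ over GFP- CD25- cells, 7 higher in Foxp3-null and 8 higher and 22 lower in Foxp3-fusion over GFP- CD25- cells, and 16 higher and 15 lower in Foxp3-fusion over Foxp3-null cells; in that order the shares of all genes were 14.3%, 11.7%, 24.5%, 19.96%, 13.9%, 17.7% and 24.4%. Centring arrays on their median, no floor, a floor 1 log2 unit higher and dropping probe sets shared by several transcripts kept all counts over the members within 1.5 times. Of the differences of single named members, 17 of 119 moved by over 1.5-fold on the deposited scale and 27 of 101 with the median over probe sets, beside the 4 reversed. The counts of members with a range of at least 2-fold, added after the data were seen, stayed within 1.5 times of 33 on the deposited scale and with any 1 array left out, but both together gave 18 without the Foxp3-null array. Signal over background limits the 10 members under the floor, for which no difference is given.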
